A study of Drosophila melanogaster with 6 samples.

Results

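Synaptic vesicle and neurotransmitter release genes were examined in larval central nervous systems of Drosophila melanogaster after RNAi against dSET2. The set holds 36 genes, chosen by name for their part in vesicle fusion, vesicle recycling, transmitter loading or transmitter synthesis, out of 16948 genes named in the deposited tables. The tables list transcripts, and the values given for a gene are those of its transcript of highest base mean, the mean over libraries of read counts scaled to a common depth. Of the 36 genes, 25 reached a base mean of 10, a further 5 lay between 0 and 10, and 6 were listed at 0.

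Per the labels, the knockdown group had 3 samples with the genotype dSET2 RNAi/+; elavC155GAL4, and the control group had 3 samples with the genotype dSET2 RNAi/+; Canton S, a wild-type strain without the driver. The RNAi transgene was thus present in all 6 samples. The elav-C155 insertion expresses GAL4 in neurons. Its activity in other cells of the tissue, neuroblasts and glia included, was not examined here. Each sample pooled 15 larval nervous systems of third-instar animals at 84 h after egg laying, raised at 25 °C. dSET2 is Set2, a histone H3 lysine 36 methyltransferase.

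At a chemical synapse, transmitter is made in the neuron, loaded into vesicles by a proton-coupled transporter and released when vesicle and plasma membrane SNARE proteins zip together. Calcium entering at the active zone triggers fusion through synaptotagmin. The vesicle membrane is then retrieved by clathrin adaptors, endophilin, synaptojanin and dynamin. In the larval fly nervous system acetylcholine is the main excitatory transmitter of the central neuropil, GABA is inhibitory, and glutamate is used by motor neurons.

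Both deposited tables, one from edgeR and one from DESeq2, give a comparison between the groups and no values per sample. Reads per library were recovered from the base mean, the average log2 CPM and the edgeR log2 fold change, and exactly 1 set of whole reads was found for 15209 of 15342 transcripts above 0, those of every release gene included. The reads belong to 4 libraries and not to 6, called A, C, D and B here. The tables do not say which labelled sample a library is, or which side is the knockdown. Transcripts with a single read in library A (499), C (427) or D (194) all had a positive fold change, and all 489 with a single read in B had a negative one. A positive value therefore means a higher level in A, C and D than in B, and library B has no replicate. The spread behind every p-value thus comes from A, C and D alone. Effective library sizes ran from 6974243 reads (library D) to 14197624 (library A). The transcript of Set2 itself had 6.75, 23.3 and 0 normalized reads in A, C and D, against 32.4 in B, where 3 reads in D equal 4.28 normalized reads, with a deposited edgeR log2 fold change of -1.65 (unadjusted p = 0.0388, false discovery rate 1). It was not used to assign a side to a group.

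Marker genes of other tissues also differed between the libraries. The sums for salivary gland, fat body, haemocytes and muscle leave out the most abundant genes of each list, whose reads were not recovered because their base means exceed 9000. Over 10 of 11 salivary gland genes, normalized reads summed to 70.9 in A, 79.8 in C and 89.8 in D, against 33392 in B, and Sgs4 and Sgs5 had no read in A, C or D. These genes took 0.551% of recovered reads in B and at most 0.00152% in the other libraries. The salivary gene left out, ng3, had a base mean of 32295, far above the others, and a deposited edgeR log2 fold change of -10.25, so that 0.551% understates the salivary share in B. Fat body genes (7 of 8) summed to 600.4, 44.3 and 71.3 in A, C and D, against 21174 in B, with Fbp1 listed at 0, and Lsp1gamma, left out, had a deposited edgeR log2 fold change of -6.73. Nearly all of the fat body sum was Lsp1alpha, with 590, 36.6 and 61.3 normalized reads in A, C and D, against 21167 in B. The other summed fat body genes had few reads, and apolpp went the other way, with 8.78, 5.54 and 9.98, against 4.50 in B. Haemocyte genes (6 of 7) summed to 1105.5, 36.6 and 77.0 in A, C and D, against 29719 in B, with Hml and srp listed at 0, and PPO2, left out, had a deposited edgeR log2 fold change of -4.96. In B nearly all of the haemocyte sum was PPO1, with 29354 normalized reads. For eater B was also the highest library, whereas NimC1 had 8.78, 0 and 8.55 in A, C and D, against 4.50 in B. Muscle genes (10 of 12) summed to 241, 244 and 349 in A, C and D, against 356 in B, with Prm listed at 0. Most of that sum was Tm1, with 181, 210 and 252 normalized reads in A, C and D, against 205 in B. The 2 muscle genes left out were the most abundant, Act57B with a base mean of 15816 and Mlc2 with 12269, and their deposited edgeR log2 fold changes were -2.21 and -2.33 (false discovery rate 1 for each). The median over the 7 measured muscle genes was -1.32, and 6 of the 7 were negative. The part of these tissues in the results below was not tested.

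What the tables could measure differed between release genes with the structure of their transcripts. The tables hold 192 transcripts of the 36 genes, and 142 of these were listed at 0. In the Ensembl annotation BDGP6.54, the 4 genes Syn, Syp, Rbp and DAT have no base that belongs to exactly 1 of their transcripts. The other pair listed at 0, stnA and stnB, encode the stoned proteins from a shared message, and 100% of the exonic bases of each lie in the other. Syn is synapsin, Rbp the RIM-binding protein and DAT the plasma membrane dopamine transporter. The fly gene with the symbol Syp encodes Syncrip, an RNA-binding protein, and not a synaptophysin.

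The same relation was seen across the annotation. Among protein-coding genes with equal numbers of transcripts in the annotation and the tables, 658 had no base specific to 1 transcript and 1 gene, and 651 of these (98.9%) had a base mean of 0. Of the 13064 genes with at least 1 such base, 2503 (19.2%) were at 0. A 0 for these 6 release genes is not read as absence of expression here, and differences in base mean between genes are not read as differences in expression level. Whether the value of a gene with several transcripts covers more than its transcript-specific bases was not tested. How reads shared between transcripts were counted is not given in the sources used here.

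**Figure D1:**
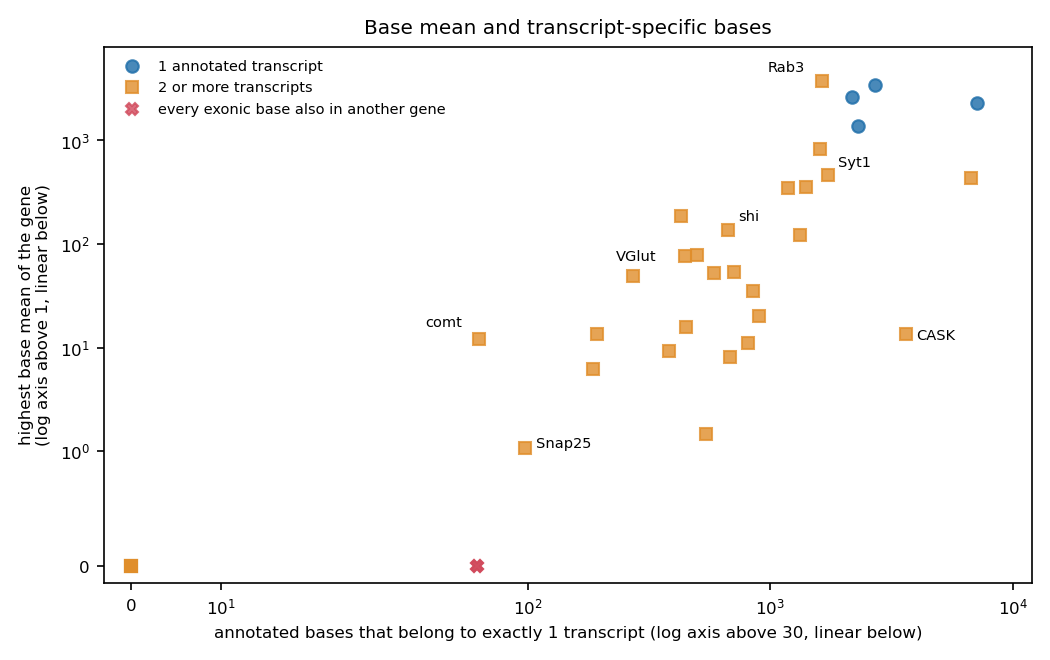
Highest base mean of each of the 36 genes (vertical axis) against the number of annotated bases that belong to exactly 1 transcript of the gene (horizontal axis), 1 point per gene. Syn, Syp, Rbp and DAT coincide at the origin, stnA and stnB coincide at 62 such bases with a base mean of 0, and the 4 genes with 1 transcript (VGAT, Trhn, VAChT and Tdc2) lie between 1393 and 3431.

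None of the 25 measured release genes differed past the threshold between the sides. In the authors' deposited edgeR table the false discovery rate was 1 for all 25, against calls for 0.394% of all 6592 genes of that level on the positive side and 3.2% on the negative side. In the authors' deposited DESeq2 table no release gene had an adjusted p-value under 0.05 either, against 0.319% of all genes on the positive side and 2.62% on the negative side. The smallest adjusted p-value there was 0.597, for ChAT. At an unadjusted edgeR p-value under 0.05 there were 2 genes, shi and Tdc2, both positive, against 2.97% of all genes. At an unadjusted DESeq2 p-value under 0.05 there were 4, shi, Tdc2, ChAT and Rop, also positive, against 2.4% of all genes.

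The fold changes of the set lay mostly above 0. Of the 25 genes, 22 had a positive log2 fold change, where 51.5% of all 6592 genes did. The median was 0.55 in the authors' deposited edgeR table and 0.42 in their DESeq2 table, beside 0.01 and 0.02 over all genes. These are descriptions of genes chosen with earlier results of these data known, and not a test of the set. In bulk tissue, fewer neurons and less RNA per neuron cannot be told apart.

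**Figure D2:**
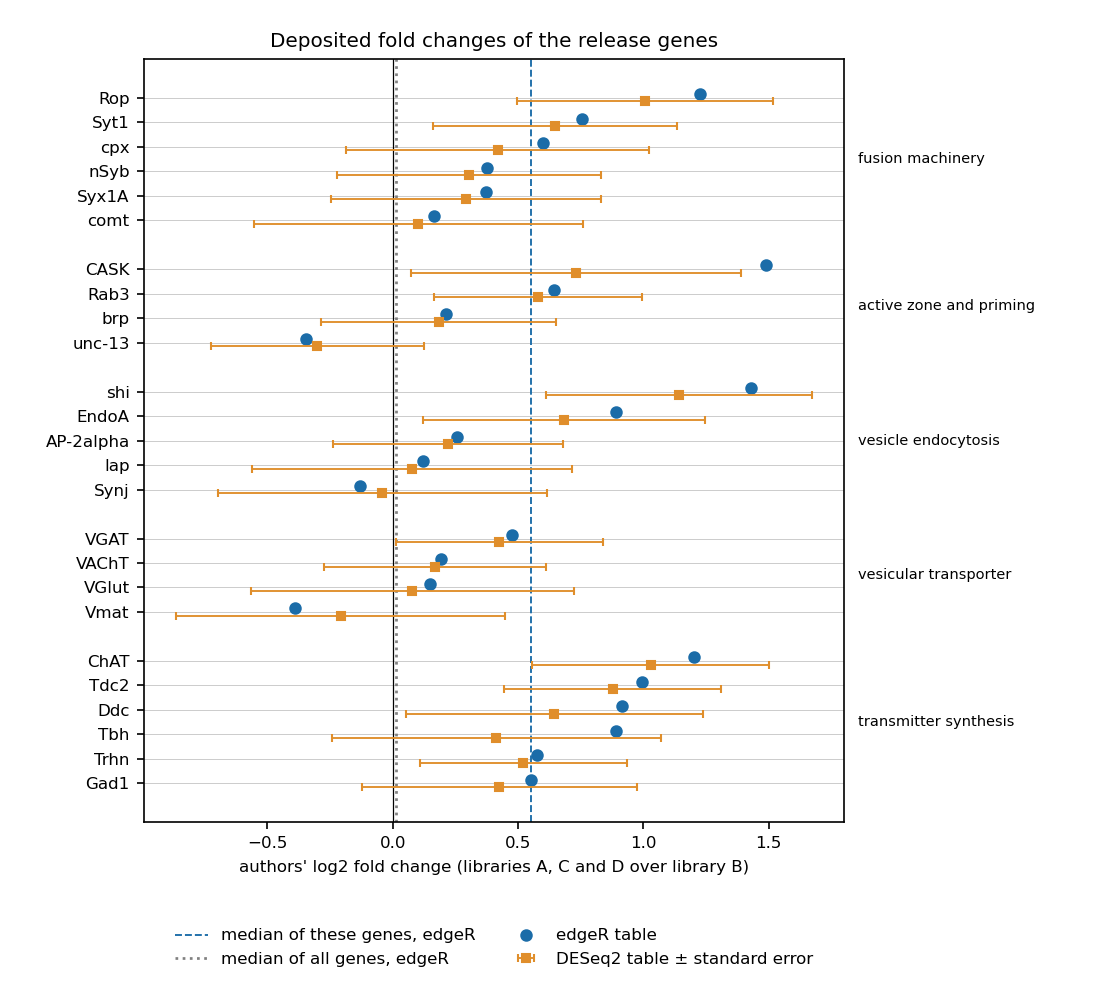
Log2 fold changes of the 25 genes that reached a base mean of 10, grouped by role, from the authors' deposited tables, edgeR (circles) and DESeq2 (squares, with bars of 1 standard error). Positive values mean higher levels in libraries A, C and D than in B, the dashed line is the median of these genes, 0.55, and the dotted line that of all genes, 0.01.

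The reads by library showed that the 3 libraries on the positive side did not move together. Library B was the lowest of the 4 in 11 of the 25 genes, where it was lowest in 24.8% of all genes with recovered reads. It lay between the others in 12 genes and was the highest in 2, unc-13 and Vmat, beside 23.5% of all genes. The highest library was C for 12 genes and D for 11, and A for none, beside 23%, 35.3% and 18.2% of all genes. The median log2 ratio to B, with a pseudocount of 1, was -0.09 for library A, 0.73 for C and 0.61 for D. Library A was above B in 11 of the 25 genes, C in 21 and D in 20. Over all genes these medians were 0.05, -0.02 and 0.00. For the mean of A, C and D the release genes' median log2 ratio to B was 0.54, with 22 of 25 genes above B. Without library C it was 0.31, with 16 of 25 above B. Without A it was 0.67 and without D 0.51, with 23 and 21 genes above B.

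**Figure D3:**
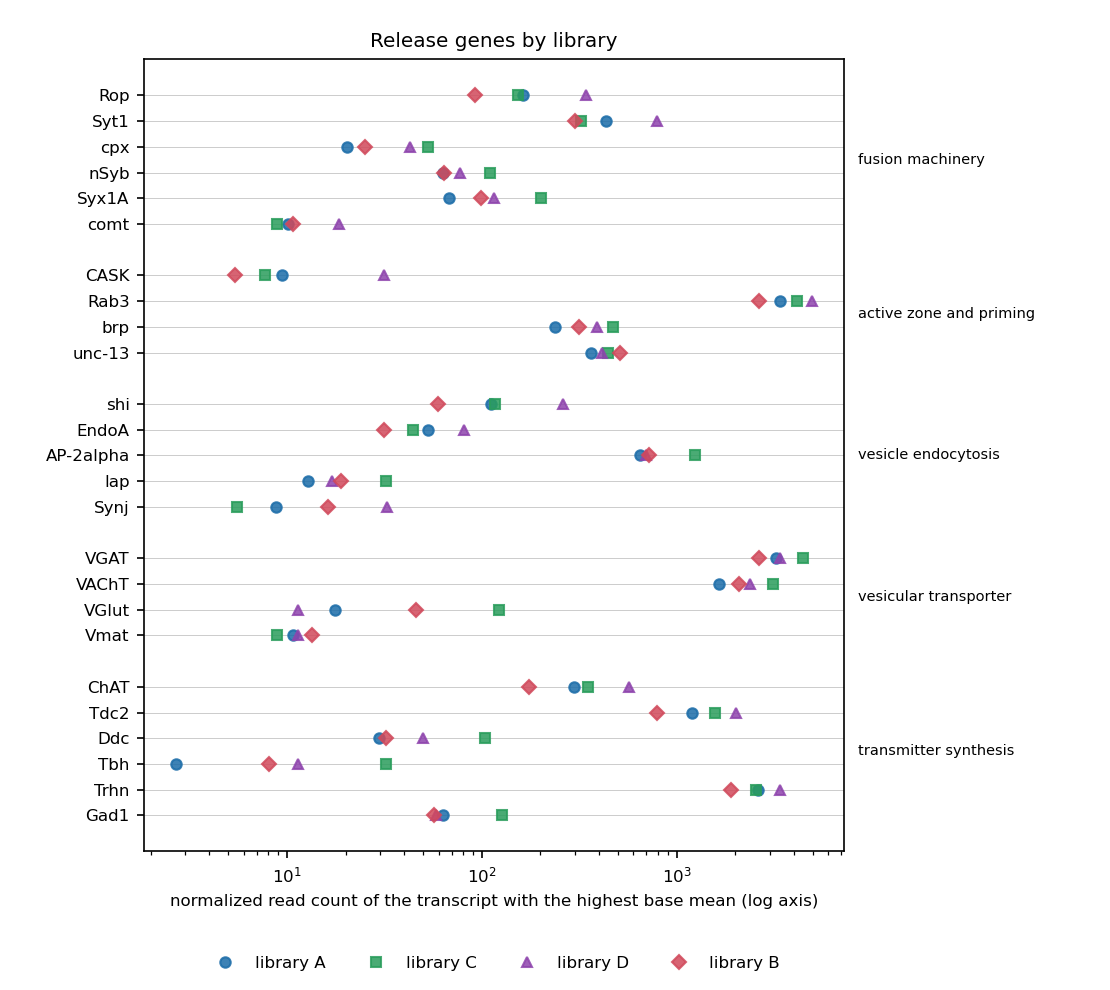
Normalized read count (log axis) of the 25 genes that reached a base mean of 10 in libraries A, C, D and B, 1 marker per library, grouped by role. Library B is the leftmost marker in 11 rows, among them Rop, shi, ChAT and Tdc2, while VGlut and Tbh spread widely within A, C and D.

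Among the genes of the fusion machinery, all 6 that reached a base mean of 10 had positive fold changes, between 0.17 and 1.23, and none was called. Rop, the fly Munc18 protein that binds syntaxin, had 163, 153 and 341 normalized reads in libraries A, C and D, against 91.9 in library B. All 3 values lay above that of B, and D was the highest. The authors' deposited tables gave a log2 fold change of 1.23 from edgeR (unadjusted p = 0.0742) and 1.01 ± 0.51 (standard error) from DESeq2 (unadjusted p = 0.0483, adjusted p = 0.794). Syt1, the calcium sensor of fast release, had 436, 321 and 793 normalized reads in A, C and D, against 301 in B. Here C was close to B, with counting intervals (95%, exact Poisson) of 286 to 361 in C and 269 to 335 in B. In the authors' deposited tables its log2 fold change was 0.76 from edgeR (unadjusted p = 0.183) and 0.65 ± 0.49 from DESeq2.

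Among the SNARE genes, Syx1A and nSyb had smaller fold changes than Rop and Syt1, and Snap25 had too few reads to compare. Syx1A, the plasma membrane syntaxin, had 68.2, 202 and 115 normalized reads in A, C and D, against 99.1 in B. The value of B fell inside the range of the others, and the deposited edgeR log2 fold change was 0.37 (unadjusted p = 0.581), with 0.29 ± 0.54 from DESeq2. The vesicle SNARE nSyb had 63.5, 110 and 77.0 normalized reads in A, C and D, against 64.0 in B. Libraries A and B had nearly the same value, and the deposited edgeR log2 fold change was 0.38 (unadjusted p = 0.590), with 0.30 ± 0.53 from DESeq2. Snap25, the other plasma membrane SNARE, gave 1, 0 and 0 reads in A, C and D, against 4 in B, and the annotation has 98 bases that lie in exactly 1 of its 2 transcripts. Its deposited edgeR log2 fold change of -3.11 (unadjusted p = 0.0725) rests on these reads and on how the fit treats counts near 0, and the DESeq2 value was -0.42 ± 0.39.

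The remaining fusion genes had few reads. The ATPase comt, the fly NSF that takes used SNARE complexes apart, had 10.1, 8.87 and 18.5 normalized reads in A, C and D, against 10.8 in B, with a deposited edgeR log2 fold change of 0.17 (unadjusted p = 0.858) and 0.10 ± 0.66 from DESeq2. Complexin (cpx), which clamps and assists fusion, had 20.3, 53.2 and 42.8 normalized reads in A, C and D, against 25.2 in B, with a deposited edgeR log2 fold change of 0.60. The vesicle chaperone Csp stayed under a base mean of 10, at 6.20, with 8, 12 and 3 reads in A, C and D, against 2 in B.

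At the active zone, where vesicles dock and are primed, 4 of 6 genes reached a base mean of 10. CASK, a membrane scaffold kinase, had the highest edgeR fold change of the 25 genes and rested on few reads, 14, 7 and 22 in A, C and D, against 6 in B. Normalized, these were 9.45, 7.76 and 31.4 in A, C and D, against 5.41 in B, with an interval in B of 1.98 to 11.8 that covers the values of A and C. The deposited log2 fold change was 1.49 from edgeR (unadjusted p = 0.145) and 0.73 ± 0.66 from DESeq2, and 28.0% of its exonic bases also lie in lncRNA:CRG on the same strand. Rab3, the vesicle GTPase, had 3371, 4149 and 4937 normalized reads in A, C and D, against 2641 in B, and a deposited edgeR log2 fold change of 0.64 (unadjusted p = 0.0972). All 3 libraries of its positive side were above B, with D highest.

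The scaffold brp and the priming factor unc-13 did not follow that order. The active zone protein brp had 238, 473 and 389 normalized reads in A, C and D, against 315 in B, and a deposited edgeR log2 fold change of 0.21. For unc-13 there were 365, 442 and 412 normalized reads in A, C and D, against 514 in B, so that B was above every other library. Its deposited log2 fold change was -0.35 from edgeR (unadjusted p = 0.519) and -0.30 ± 0.43 from DESeq2, and 25.2% of its exonic bases have other annotated genes or transposons on the opposite strand. Rim, a further active zone scaffold, lay just under the minimum with a base mean of 9.16, from 6, 16 and 6 reads in A, C and D, against 7 in B.

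Of the 7 genes of vesicle retrieval, 5 reached a base mean of 10. The dynamin gene shi, which pinches vesicles off the membrane, had 111, 118 and 261 normalized reads in A, C and D, against 59.5 in B. Each library of the positive side was above the 95% counting interval of B, 46.0 to 75.6. In the authors' deposited tables its log2 fold change was 1.43 from edgeR (unadjusted p = 0.0468, false discovery rate 1) and 1.14 ± 0.53 from DESeq2 (unadjusted p = 0.0308, adjusted p = 0.618). Endophilin (EndoA), which bends the membrane during retrieval, had 52.7, 44.3 and 81.3 normalized reads in A, C and D, against 31.5 in B, and a deposited edgeR log2 fold change of 0.89 (unadjusted p = 0.242). B was again the lowest library for this transcript. The second transcript of EndoA had 19.6, 63.2 and 29.9 normalized reads in A, C and D, against 32.4 in B, with a deposited edgeR log2 fold change of 0.21.

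The other retrieval genes were not ordered by side. The clathrin adaptor subunit AP-2alpha had 648, 1238 and 696 normalized reads in A, C and D, against 721 in B, with the high value in C alone, and a deposited edgeR log2 fold change of 0.26. The AP180 homologue lap, an adaptor of clathrin coats, had 12.8, 32.1 and 17.1 normalized reads in A, C and D, against 18.9 in B, and a value of 0.12. Synaptojanin (Synj), the lipid phosphatase that helps remove the coat, had 8.78, 5.54 and 32.8 normalized reads in A, C and D, against 16.2 in B. Its deposited log2 fold change was -0.13 from edgeR (unadjusted p = 0.880) and -0.04 ± 0.66 from DESeq2, while its 3 libraries of the positive side spanned the value of B on either hand.

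The vesicular transporters, which load transmitter into vesicles, had the lowest median fold change by role, with a median edgeR value of 0.17 over 4 genes. VGAT, the GABA transporter, had 3241, 4439 and 3396 normalized reads in A, C and D, against 2649 in B, and a deposited edgeR log2 fold change of 0.48 (unadjusted p = 0.220). VAChT, the acetylcholine transporter, had 1655, 3132 and 2388 normalized reads in A, C and D, against 2090 in B, and a value of 0.19. Library B was the lowest for VGAT and lay between A and D for VAChT.

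The glutamate transporter VGlut showed the widest spread within a side among the transporters. It had 26, 110 and 8 reads in A, C and D, against 51 in B. Normalized, these were 17.6, 122 and 11.4 in A, C and D, against 45.9 in B, and the counting intervals of 100.2 to 147 in C and 4.92 to 22.5 in D do not meet. Its deposited edgeR log2 fold change of 0.15 (unadjusted p = 0.838) thus averages 1 library above B and 2 below it. The monoamine transporter Vmat had 10.8, 8.87 and 11.4 normalized reads in A, C and D, against 13.5 in B, and the lowest edgeR fold change of the 25 genes. The deposited values were -0.39 from edgeR (unadjusted p = 0.667) and -0.21 ± 0.66 from DESeq2, and 26.2% of the exonic bases of Vmat lie opposite CG13330.

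Enzymes of transmitter synthesis had the highest median fold change by role, with a median edgeR value of 0.90 over the 6 of 7 genes that reached a base mean of 10, all positive. Tdc2, the neuronal tyrosine decarboxylase of the octopamine pathway, has 1 transcript and 1197, 1572 and 2012 normalized reads in A, C and D, against 794 in B. All 3 libraries of the positive side were above B, and D was highest. In the authors' deposited tables its log2 fold change was 0.99 from edgeR (unadjusted p = 0.0266, false discovery rate 1) and 0.88 ± 0.43 from DESeq2 (unadjusted p = 0.0426, adjusted p = 0.747). ChAT, which makes acetylcholine, had 296, 350 and 570 normalized reads in A, C and D, against 174 in B, with a deposited log2 fold change of 1.20 from edgeR (unadjusted p = 0.0524) and 1.03 ± 0.47 from DESeq2 (unadjusted p = 0.0290). VAChT lies within the ChAT locus, and 15.1% of the exonic bases of ChAT lie in VAChT, while the value of VAChT was 0.19.

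The serotonin enzyme Trhn had 2607, 2544 and 3406 normalized reads in A, C and D, against 1899 in B, with a deposited edgeR log2 fold change of 0.57 (unadjusted p = 0.154). Tdc2, ChAT and Trhn thus had B as the lowest library and D as the highest. Ddc, which makes dopamine and serotonin from their precursors, had 29.7, 104 and 49.9 normalized reads in A, C and D, against 32.4 in B, and a deposited edgeR log2 fold change of 0.91. Tbh, which turns tyramine into octopamine, had 2.70, 32.1 and 11.4 normalized reads in A, C and D, against 8.11 in B, and a value of 0.89. For both of these C was the highest library and A was below B. The GABA enzyme Gad1 had 63.5, 127 and 58.5 normalized reads in A, C and D, against 56.8 in B, where A, D and B were close, and a value of 0.55. The tyrosine hydroxylase ple stayed under the minimum at a base mean of 8.17, with 11, 6 and 8 reads in A, C and D, against 8 in B. The serotonin transporter SerT had a base mean of 1.48, from 1, 1 and 1 reads in A, C and D, against 3 in B.

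Further transcripts of the same genes gave another order of libraries. Besides the 25 transcripts above, 8 more from 5 genes reached a base mean of 10. The values over all genes beside them are for the transcript of highest base mean of each gene. Further transcripts of other genes were not counted. The highest library was C for 7 of the 8, beside 23% of all genes, and C was already highest in the first transcripts of brp, cpx and AP-2alpha. B was lowest for 1, beside 24.8% of all genes, and 3 had a negative fold change, beside 3194 of all 6592 genes. For brp, the second transcript had 17.6, 147 and 12.8 normalized reads in A, C and D, against 59.5 in B, and the third had 5.40, 56.5 and 14.3, against 15.3 in B. The third transcript of cpx had 8.10, 39.9 and 2.85 normalized reads in A, C and D, against 17.1 in B. In these transcripts D was below B, only slightly so in the third of brp (10 reads in D and 17 in B). D was above B in the first transcript of both genes. For Syt1 the second transcript had 13.5, 24.4 and 14.3 normalized reads in A, C and D, against 35.1 in B, with a deposited edgeR log2 fold change of -1.02 (unadjusted p = 0.186), opposite in sign to its first transcript.

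**Figure D4:**
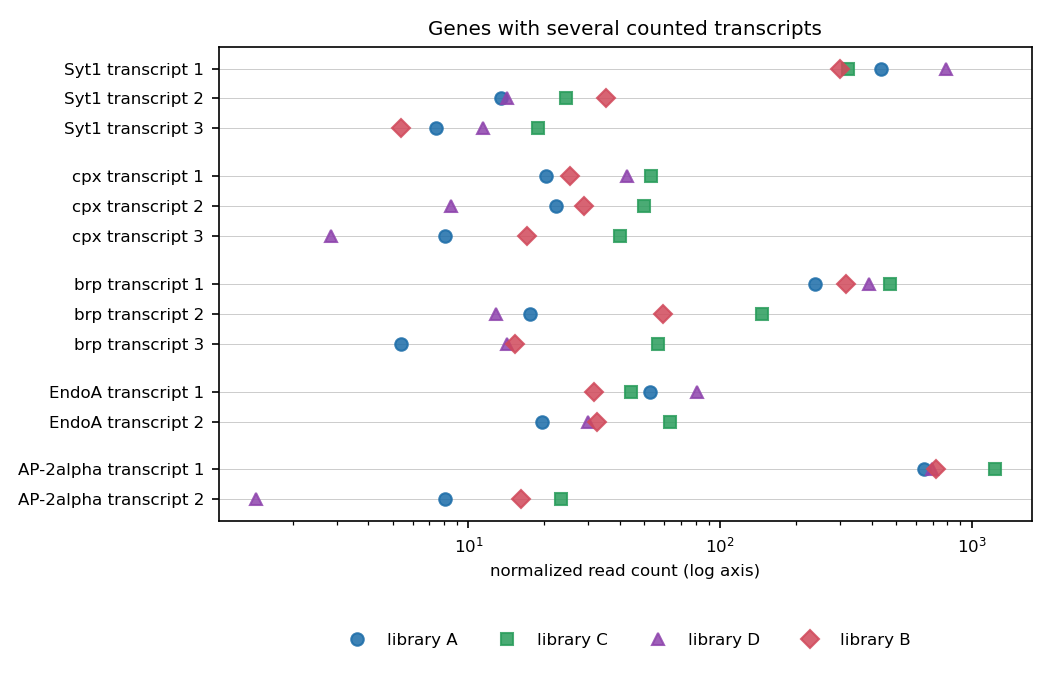
Normalized read counts (log axis) of every transcript that reached a base mean of 10 for the 5 genes that have more than 1 such transcript, ranked by base mean within each gene, in libraries A, C, D and B. Library C is the rightmost marker in 7 of the 8 transcripts of rank 2 or 3, and library D moves from above B in the first transcripts of brp and cpx to below B in the others.

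Other synaptic genes were set beside the release genes. Of 76 listed genes, 75 were matched and 45 reached a base mean of 10. Their median deposited edgeR log2 fold change was 0.56, with 35 positive (77.8%, beside 51.5% of all genes). None was called in the authors' deposited tables, edgeR or DESeq2. Over all genes the calls were 0.394% positive and 3.2% negative in edgeR, and 0.319% and 2.62% in DESeq2. At an unadjusted edgeR p-value under 0.05 there were 4 genes, all positive, beside 2.97% of all genes. These were Nlg4, a neuroligin (1.80), ChT, the choline transporter (1.23), e, the ebony enzyme that conjugates amines (0.89), and Syngr, the vesicle protein synaptogyrin (0.81). Under the minimum base mean, amd (-2.59) and Esyt2 (-1.96) also had an unadjusted edgeR p-value under 0.05. ChT, which supplies choline to ChAT, had 466, 554 and 908 normalized reads in A, C and D, against 271 in B. ChAT had the same order of libraries, but so did Rab3, Tdc2, shi and Syngr. VAChT was highest in C and lower in A than in B. By list, the medians were 0.56 for other fusion genes, 0.73 for active zone genes, 0.53 for endocytosis genes, 0.40 for vesicle proteins and 0.11 for transmitter metabolism.

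General neuronal markers lay on the same side. The 10 measured neuron genes had a median deposited edgeR log2 fold change of 0.78. B was the lowest library in 8 of them, beside 24.8% of all genes. None was called. The sodium channel gene para (0.89) and the microtubule-associated protein gene futsch (0.92) had an unadjusted edgeR p-value under 0.05, beside 2.97% of all genes on the positive side. Normalized reads of all 11 neuron genes summed to 9006 in A, 10442 in C and 14222 in D, against 6704 in B. For library A the medians of the lists differed, but not the direction of their sums. The median log2 ratio of A to B was 0.33 for neuron genes and 0.27 for other synaptic genes, but -0.09 for release genes. Normalized reads of all 36 release genes summed to 14717 in A, 19828 in C and 20184 in D, against 12699 in B. That sum rests mostly on the genes with the most reads. The 6 measured glial genes had a median of 0.13, with a sum over the list of 27290, 28491 and 24371 in A, C and D, against 25968 in B, and Gli listed at 0. The 11 neuroblast genes had a median of -0.02, with sums of 8283, 10369 and 9107 in A, C and D, against 7660 in B. Whether the values of the release genes move with the neuronal share of the tissue was not tested.

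**Figure D5:**
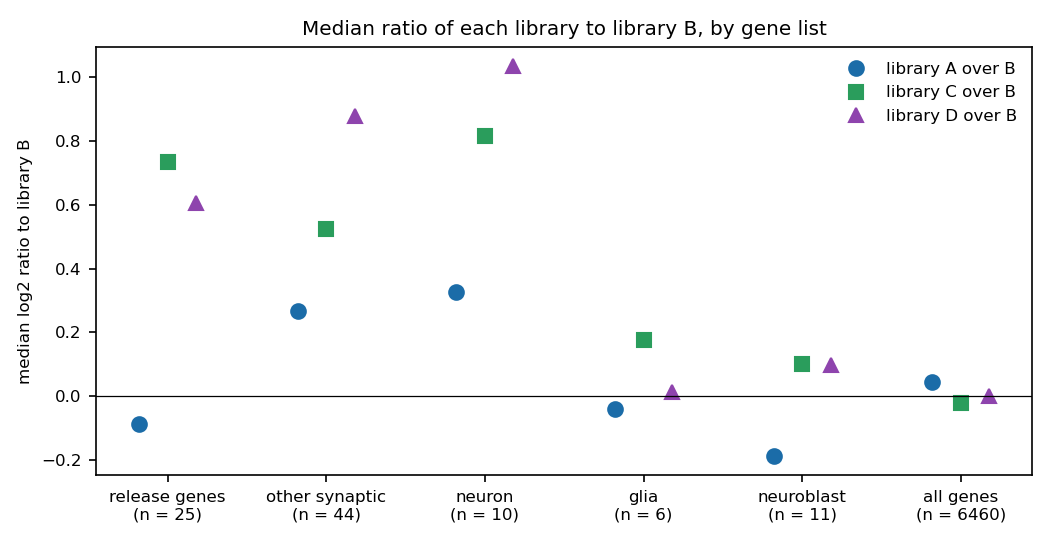
Median log2 ratio to library B of normalized reads in A, C and D, with a pseudocount of 1, for the release genes, the other lists and all genes with recovered reads. For the release genes C (0.73) and D (0.61) lie above 0 and A (-0.09) just below it, while all 3 medians over all genes lie between -0.02 and 0.05.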

How the data were processed

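RNA sequencing of larval nervous systems was examined from 2 tables of the authors' own comparison over 34115 RefSeq transcripts. The authors used HISAT2, featureCounts, DESeq2, edgeR and the build dm3, per the submitters' processing notes, which give no roles or versions. The deposited base mean is a signal, the mean of size-factor normalized counts over libraries. Per the file headers, the tables also hold log2 fold changes and average log2 CPM, a Wald and an F statistic (each a test score) and a standard error, and p-values with and without adjustment. No test was refitted, and p-values are those that the authors deposited from edgeR and DESeq2, called at an adjusted value under 0.05. They measure only the spread between libraries A, C and D, since B has no replicate. No library is tied to a labelled sample, so whether A, C and D are separate pools of animals is not known.

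Of the transcripts, 33958 matched a gene in the RefSeq table of Release 6 plus ISO1 MT by accession and 157 did not. The build differs from dm3, so no coordinates are given. The gene listed as endoA was matched as EndoA. Reads per library were recovered up to a base mean of 9000: base means up to 40 gave 1 set of whole reads each (10306 of 10306). The average log2 CPM was not used in that step. Library sizes and a common dispersion were then fitted to log2 CPM values of these transcripts, after which all 10306 were met within 5e-09. Higher transcripts (4903 of 4904) also used log2 CPM and fold change. Normalized reads are reads over the size factors of 1.48 (A), 0.902 (C), 0.701 (D) and 1.11 (B). Intervals are exact Poisson (95%), and floors are 3 reads. Both cover counting error only. Transcript-specific bases came from BDGP6.54, with the highest base mean per gene from the tables.

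Named in full are genes whose unadjusted p-value was under 0.05 in the authors' deposited edgeR table, the 3 highest and 3 lowest fold changes and the core fusion genes Syx1A, Snap25, nSyb, Syt1, Rop and comt. Others were given by role. Members and lists were chosen with earlier results of these data known. Python 3.11.15, numpy 2.4.6, pandas 2.3.3, scipy 1.17.1 and numba 0.67.0 were used.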

Additional observations from a re-analysis of the deposited data

How the results depend on the processing

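Of 43 combinations of result and alternative, 42 kept their direction and call. The count of positive genes did not always stay close to the reported one. Without library C, in the recovered reads, it fell from 22 to 16 of 25 (64%). The share of 51.5% over all genes is from the edgeR table with every library, and no such share is given without C. With CASK the log2 fold change was 0.73 in the DESeq2 table and 1.49 in the edgeR table, and for Snap25 it was -0.42 and -3.11. The count of called release genes was 0 in either direction with the DESeq2 table, at an adjusted p-value under 0.1, with the adjustment limited to transcripts that reached a base mean of 10 (smallest adjusted p = 0.370) and with any transcript of the gene. The median log2 fold change of the release genes lay between 0.38 and 0.57 under the other table, minimum base means and transcript choices. Set against B alone, a comparison chosen after the data were seen, library A gave a median log2 ratio of -0.0856, opposite in sign, whereas C gave 0.73 and D 0.61. The median for A is the value of comt, from 15 reads in A and 12 in B, so its sign rests on few reads. A was above B in 11 of the 25 genes, and the sum over all 36 genes was higher in A (14717) than in B (12699). The ratio of A to B uses 1 library of the positive side by construction. With the mean of the libraries on the positive side, also chosen after the data were seen, leaving out 1 library in turn gave medians of 0.31 to 0.67 and 16 to 23 positive genes, the lowest without library C. Positive genes were 25 of 30 with any base mean above 0, 16 of 17 at a base mean of at least 50 and 21 of 25 with the mean over transcripts.

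No paired analysis was possible because recovered reads carry no sample label. Tests that leave out a library were not refitted, since libraries of no known sample enter no test here. Genes with few reads, such as CASK, comt, Vmat, Synj and Tbh, are limited by depth.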

Other observations

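Library A differed from C and D in genes outside the release set. Lsp1alpha, a larval serum protein of the fat body, had 590 normalized reads in A, 36.6 in C and 61.3 in D, against 21167 in B. PPO1, a prophenoloxidase of haemocytes, had 888 in A, 16.6 in C and 20.0 in D, against 29354 in B. The haemocyte receptor gene eater had 207 in A, 20.0 in C and 47.0 in D, against 357 in B. For each of these genes A lay above C and D and below B.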
